A study of Rattus norvegicus with 30 samples.

Results

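Liver RNA was measured for 35 genes of cell division in 30 female Sprague-Dawley rats, an outbred strain, at 10 weeks of age. The genes come from a list of 37 that act in DNA replication and mitosis, and 35 of them had a probe set annotated with their symbol alone, out of 14217 genes with such a probe set. Tpx2 was not listed in the annotation used here, and Rrm2 was listed only on probe sets that also name a related gene, so neither was analysed here. Where a gene had several probe sets, the one with the highest mean over the 30 arrays stood for it.

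The rats fell into 3 groups of 10. Control rats were not handled. Rats handled for 1 day were weighed, restrained, given water by oral gavage and bled repeatedly from the tail vein, and rats handled for 4 days were weighed, restrained and gavaged daily and bled on the last day. The control group and the group handled for 1 day were taken down on day 2 and carry a label of 24 h. The group handled for 4 days was taken down on day 5 and carries a label of 96 h. No unhandled group was taken on day 5, so that longer handling and the later day cannot be told apart. A piece of the left liver lobe of each rat was hybridised to 1 Affymetrix Rat Genome 230 2.0 array.

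Most hepatocytes of an adult liver are out of the cell cycle and enter it when tissue is lost. A cell that does divide first raises genes for copying DNA, which are driven by E2F transcription factors, and later raises genes for mitosis, which are driven by the MYB-MuvB and FOXM1 factors. Transcripts of both waves are therefore scarce in resting liver, where they can come from hepatocytes, from resident blood cells or from other cells of the tissue. In whole tissue, fewer dividing cells and less RNA per dividing cell cannot be told apart.

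The promoters of these genes share short sequences through which those factors act, and 4 are shown because the values below turn on their genes. They run from 250 bases before to 50 bases after the gene start in RefSeq's GRCr8 build, on the strand of the gene. Capitals mark CCAAT (the box bound by NF-Y), TTTGAA (the cell cycle genes homology region) and TTNNCGC (a loose form of the E2F site), each searched on both strands. Neighbouring matches of the E2F letters overlap on opposite strands. Pcna lies at chr3:139955771-139956070 on the minus strand, Mcm6 at chr13:42404303-42404602 on the minus strand, Ccnb2 at chr8:79981609-79981908 on the minus strand and Mybl2 at chr3:172124555-172124854 on the plus strand.
Pcna: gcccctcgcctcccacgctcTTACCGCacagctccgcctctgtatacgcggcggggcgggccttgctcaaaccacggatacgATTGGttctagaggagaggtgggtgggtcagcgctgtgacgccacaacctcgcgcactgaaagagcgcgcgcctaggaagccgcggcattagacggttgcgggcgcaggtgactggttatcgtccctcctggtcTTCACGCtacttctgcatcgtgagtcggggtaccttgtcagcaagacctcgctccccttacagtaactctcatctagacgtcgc
Mcm6: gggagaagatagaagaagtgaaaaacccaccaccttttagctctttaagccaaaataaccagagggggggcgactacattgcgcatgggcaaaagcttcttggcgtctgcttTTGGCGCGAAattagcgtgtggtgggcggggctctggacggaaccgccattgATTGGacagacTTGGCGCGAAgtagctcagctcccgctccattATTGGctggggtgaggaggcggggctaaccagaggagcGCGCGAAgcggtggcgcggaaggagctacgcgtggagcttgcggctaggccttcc
Ccnb2: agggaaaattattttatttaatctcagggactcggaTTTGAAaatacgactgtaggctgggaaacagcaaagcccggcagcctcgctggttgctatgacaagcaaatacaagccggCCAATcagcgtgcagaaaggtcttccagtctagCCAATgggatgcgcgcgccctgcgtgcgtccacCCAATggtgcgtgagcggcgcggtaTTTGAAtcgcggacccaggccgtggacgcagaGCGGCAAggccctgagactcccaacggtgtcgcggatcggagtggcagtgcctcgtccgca
Mybl2: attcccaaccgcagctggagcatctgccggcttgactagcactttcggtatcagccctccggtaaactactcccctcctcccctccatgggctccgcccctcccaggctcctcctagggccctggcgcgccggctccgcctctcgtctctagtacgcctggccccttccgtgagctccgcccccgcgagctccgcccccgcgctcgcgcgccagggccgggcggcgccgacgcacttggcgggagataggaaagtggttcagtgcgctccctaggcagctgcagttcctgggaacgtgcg

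The Ccnb2 promoter, of a mitotic cyclin, held 3 CCAAT boxes at 134, 101 and 68 bases before the start and a homology region at 43 bases before it. It also held a further TTTGAA at 214 bases and 1 E2F match at 11 bases before the start. The Mcm6 promoter, of a subunit of the replicative helicase, held 5 E2F matches and 2 CCAAT boxes. The Mybl2 promoter held none of the 3 sequences. Of the 35 genes, 30 had a promoter in the RefSeq table. CCAAT was present in 22 of the 30 (73.3%) against 37.7% of all 27457 promoters and 37.3% of the 11701 promoters of genes on the array. TTTGAA was present in 16 (53.3%) against 18.1% and 12.3%. TTNNCGC was present in 15 of the 30 against 20.9% of all promoters and 30.7% of those of genes on the array.

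The letters for E2F were searched in a second form. After TTNNCGC had been seen to miss the Mybl2 promoter, a set of 4 fully spelled words was tried in its place. The set held TTGGCGC and TTCGCGC, and also TTCCCGC. Its remaining word was TTGGCGG, which the first pattern does not cover. Any of the 4 was present in 12 of the 30 promoters, against 10.1% of all promoters and 16.7% of those of genes on the array. They matched the Mybl2 promoter 15 bases before the start and left the Pcna and Ccnb2 promoters with no E2F match. Since this second set was written after reading one of the promoters it was then matched to, its match in Mybl2 is a description of that choice. After 1 day the median log2 fold change was -0.25 with CCAAT and -0.30 without it, -0.26 with TTTGAA and -0.25 without it, and -0.22 with TTNNCGC and -0.28 without it. After 4 days it was -0.31 with CCAAT and -0.27 without it, the same -0.31 and -0.27 with and without TTTGAA, and -0.23 with TTNNCGC and -0.32 without it. No test was run on these medians.

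Most of these genes were dim. Intensities were on a linear scale on which each array has a mean of about 1, and 24 of the 35 genes lay in the dimmer part of all 31042 probe sets, below the median. Ttk, a checkpoint kinase, was dimmest, at the 9.80th percentile of mean log2 intensity, and Pcna was brightest, at the 91.5th. Mcm7 and Pcna were the only members above the 75th percentile.

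After handling, most cell division genes had a lower mean than in control rats. After 1 day 32 of 35 genes (91.4%) were lower, against 50.8% of all probe sets and 54.3% of genes with 1 probe set each. The median log2 fold change of the 35 was -0.26, with a range from -0.77 for Cdkn3 to 0.40 for Mybl2, against -0.00 over all probe sets. After 4 days 32 of 35 were again lower, against 49.5% of all probe sets and 53.8% of genes, with a median of -0.28 and a range from -0.62 for Cdkn3 to 0.64 for Mybl2. Mybl2, Kif11 and Birc5 were not lower after 1 day, and Mybl2, Ttk and Racgap1 were not lower after 4 days. Over all 50 probe sets of these genes, 41 were lower after 1 day and 43 after 4 days. Of the 10 genes with more than 1 probe set, 5 had all in one direction after 1 day and 6 after 4 days. Both comparisons share the same 10 control rats.

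Control rats 1, 2 and 3 lay apart on the first principal component of all probe sets, which held 10.5% of the variance, with scores of 52.3 to 84.3 against -25.2 to 1.76 in the other 27 rats. They are taken here to be the 3 samples that the study's methods describe without naming. Without them 30 of 35 genes were lower after 1 day and 30 of 35 after 4 days, against 52.2% and 50.8% of all probe sets. The median log2 fold changes were then -0.17 and -0.19.

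Single genes seldom passed the test. A call needed an adjusted p below 0.1 in limma with Benjamini-Hochberg adjustment over all probe sets. After 1 day 0 of 35 genes passed, where 0.0902% of all probe sets did, and the smallest adjusted p was 0.231, for Pcna. At an unadjusted p under 0.05, 7 genes were lower, where 4.86% of all probe sets were, and 1 was higher, where 4.47% were. The methods' t-test and an exact rank-sum test each called 1 gene after 1 day, Pcna, where 0.177% and 0.0902% of all probe sets were called. After 4 days 1 gene passed, Mybl2, which was higher, where 0.657% of all probe sets passed and 0.287% passed in that direction. At an unadjusted p under 0.05, 7 genes were lower after 4 days, where 5.89% of all probe sets were, and 1 was higher, where 5.40% were. Without control rats 1, 2 and 3, 0 genes passed in either comparison, where 0.329% and 0.828% of all probe sets did, and 3 genes were lower at an unadjusted p under 0.05 in each, where 4.76% and 6.19% were.

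**Figure D1:**
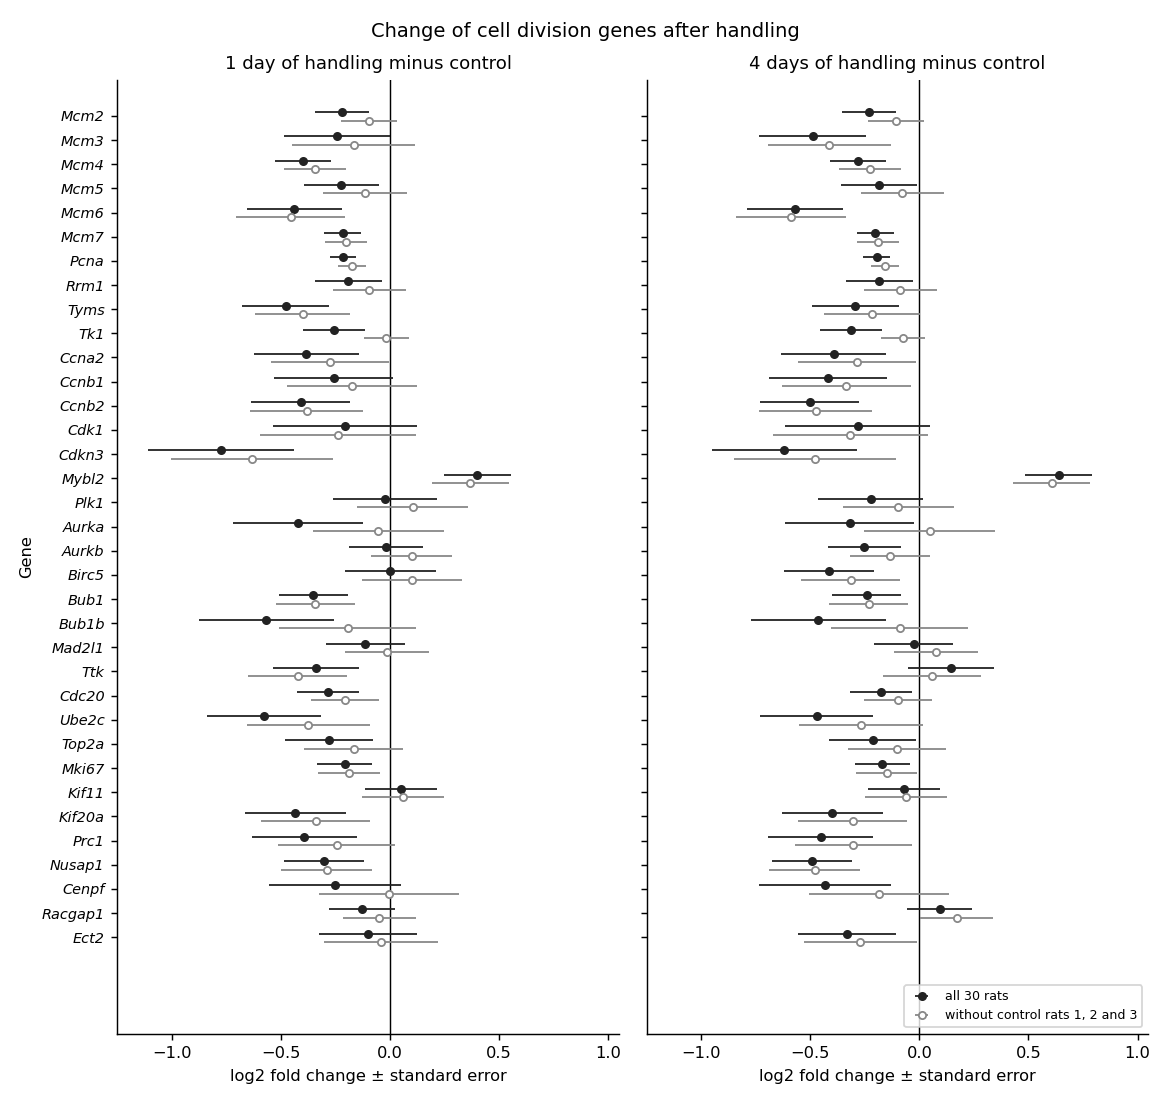
Log2 fold change of each of the 35 genes against control after 1 day (left) and 4 days (right) of handling, with bars of 1 standard error. Filled points use all 30 rats and open points leave out control rats 1, 2 and 3, and 32 of 35 filled points lie below 0 in each panel.

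Among the genes that copy DNA, all 7 were lower in both comparisons, with median log2 fold changes of -0.22 after 1 day and -0.23 after 4 days. They encode the 6 subunits of the helicase that opens the double helix (Mcm2 to Mcm7) and Pcna, the sliding clamp that holds DNA polymerases on their template. All 7 also had a lower mean without control rats 1, 2 and 3, where the medians were -0.17 and -0.19.

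Pcna had an intensity of 2.24 to 2.64 in control rats with a median of 2.34, of 1.89 to 2.21 after 1 day with a median of 2.09, and of 1.74 to 2.52 after 4 days with a median of 2.11. All 10 rats handled for 1 day lay below all 10 control rats, which held for 0.0129% of all probe sets, and 8 of 10 rats handled for 4 days did, so that the groups overlapped at 4 days. The log2 fold change was -0.21 ± 0.06 (SE) after 1 day (adjusted p = 0.231) and -0.20 ± 0.06 after 4 days (adjusted p = 0.173). This direction is opposite to the one the study gives for Pcna. Without control rats 1, 2 and 3, of which rats 2 and 3 were the brightest controls, the differences were -0.17 (adjusted p = 0.394) and -0.16 (adjusted p = 0.329).

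Mcm4 ranged from 0.307 to 0.498 in control rats with a median of 0.372, from 0.190 to 0.450 after 1 day with a median of 0.293, and from 0.245 to 0.433 after 4 days with a median of 0.313. The groups overlapped, with 5 rats handled for 1 day below all control rats. The differences were -0.40 ± 0.13 (adjusted p = 0.303) and -0.28 ± 0.13 (adjusted p = 0.390). Mcm7 ranged from 0.451 to 0.653 in control rats with a median of 0.589, from 0.424 to 0.565 after 1 day with a median of 0.503, and from 0.419 to 0.686 after 4 days with a median of 0.485. All 10 rats handled for 1 day lay below the control median, and the differences were -0.22 ± 0.09 (adjusted p = 0.420) and -0.20 ± 0.09 (adjusted p = 0.341).

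Mcm6, whose promoter held the 5 E2F matches, ranged from 0.0835 to 0.191 in control rats with a median of 0.143, from 0.0585 to 0.162 after 1 day with a median of 0.101, and from 0.0522 to 0.179 after 4 days with a median of 0.0887. The groups overlapped, and the differences were -0.44 ± 0.22 (adjusted p = 0.546) and -0.57 ± 0.22 (adjusted p = 0.287). Mcm2, Mcm3 and Mcm5 had differences from -0.49 to -0.19, of which that of Mcm3 after 4 days was the widest.

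**Figure D2:**
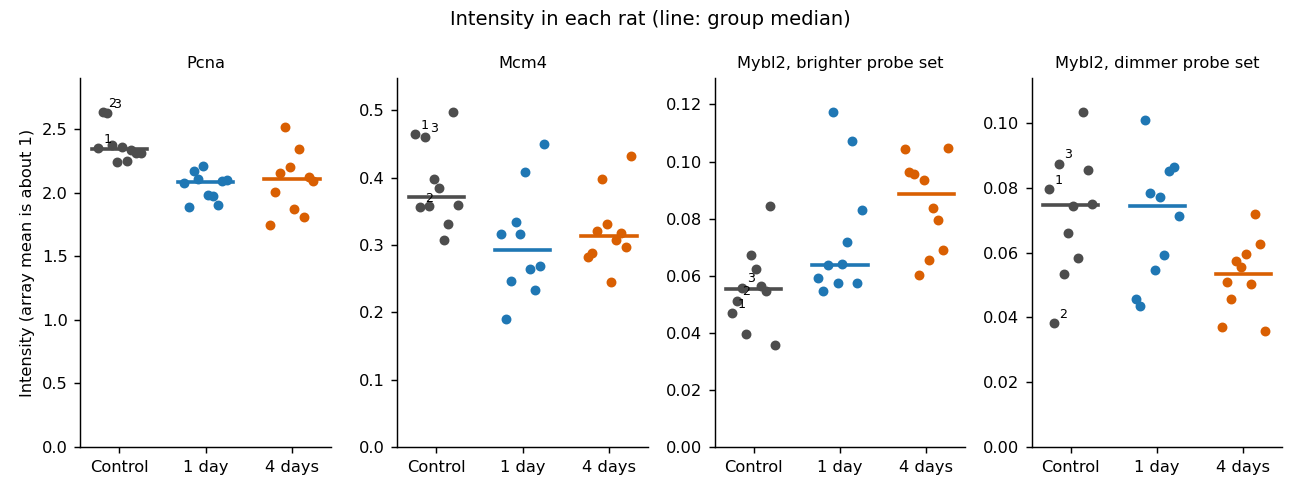
Intensity in each rat (array mean about 1, axes from 0) of Pcna, Mcm4 and both probe sets of Mybl2 by group (control, 1 day and 4 days of handling), with a line at the group median and control rats 1, 2 and 3 numbered. The Pcna values after 1 day, 1.89 to 2.21, lie below all control values, and the 2 probe sets of Mybl2 move in opposite directions after 4 days.

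The 3 genes of deoxynucleotide supply were lower in both comparisons, with medians of -0.26 and -0.29, which came to -0.10 and -0.09 without control rats 1, 2 and 3. Tyms, which makes thymidylate, ranged from 0.0369 to 0.108 in control rats with a median of 0.0723, from 0.0240 to 0.0691 after 1 day with a median of 0.0496, and from 0.0391 to 0.0677 after 4 days with a median of 0.0567. In both handled groups all 10 rats lay below the control median, while the ranges overlapped. The differences were -0.48 ± 0.20 (adjusted p = 0.455) and -0.29 ± 0.20 (adjusted p = 0.608).

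Tk1, the thymidine kinase of dividing cells, ranged from 0.156 to 0.439 in control rats with a median of 0.202, from 0.151 to 0.217 after 1 day with a median of 0.173, and from 0.139 to 0.221 after 4 days with a median of 0.180. Its differences of -0.26 ± 0.14 (adjusted p = 0.600) and -0.32 ± 0.14 (adjusted p = 0.388) came to -0.02 and -0.08 without control rats 1, 2 and 3. A second probe set of Tk1, nearly as bright, gave -0.46 and -0.54, and -0.15 and -0.22 without those rats. Its dimmest probe set, at the 12.7th percentile, was higher in both comparisons, 0.50 and 0.34. Rrm1, the large subunit of ribonucleotide reductase and the brightest of the 3, ranged from 0.149 to 0.317 in control rats, from 0.144 to 0.282 after 1 day and from 0.101 to 0.248 after 4 days, with medians of 0.207, 0.187 and 0.223. Its differences were -0.19 ± 0.15 and -0.18 ± 0.15.

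The cyclins and Cdk1, which drive entry into mitosis, and Cdkn3, which counters cyclin-dependent kinases, were lower in 5 of 5 in both comparisons, with medians of -0.38 and -0.42. The medians were -0.28 and -0.33 without control rats 1, 2 and 3. Cdkn3, a phosphatase that removes the activating phosphate from cyclin-dependent kinases, had the lowest value of all 35 after both 1 and 4 days. It ranged from 0.0701 to 0.217 in control rats with a median of 0.131, from 0.0376 to 0.166 after 1 day with a median of 0.0622, and from 0.0243 to 0.218 after 4 days with a median of 0.0941. After 1 day 6 rats lay below all control rats, and the differences were -0.77 ± 0.33 (adjusted p = 0.473) and -0.62 ± 0.33 (adjusted p = 0.492).

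Ccnb2, cyclin B2, ranged from 0.0819 to 0.252 in control rats with a median of 0.147, from 0.0708 to 0.176 after 1 day with a median of 0.0924, and from 0.0410 to 0.182 after 4 days with a median of 0.103. The ranges overlapped and the differences were -0.41 ± 0.23 (adjusted p = 0.602) and -0.50 ± 0.23 (adjusted p = 0.389). Ccnb1, cyclin B1 and the brightest of the 5, ranged from 0.0897 to 0.282 in control rats, from 0.0618 to 0.177 after 1 day and from 0.0442 to 0.230 after 4 days, with medians of 0.134, 0.128 and 0.121. Its differences were -0.26 ± 0.27 and -0.42 ± 0.27. Ccna2, cyclin A2 of S phase and early mitosis, had -0.38 and -0.39, and Cdk1, the kinase that these cyclins switch on, had -0.21 and -0.28.

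Mybl2, the transcription factor of the MYB-MuvB complex, was the member that passed the test, and its 2 probe sets disagreed. The brighter one ranged from 0.0359 to 0.0846 in control rats with a median of 0.0552, from 0.0546 to 0.117 after 1 day with a median of 0.0638, and from 0.0604 to 0.105 after 4 days with a median of 0.0885. All 10 rats handled for 4 days lay above the control median, while the ranges overlapped. It was higher by 0.40 ± 0.15 after 1 day (adjusted p = 0.411) and rose by 0.64 ± 0.15 after 4 days (adjusted p = 0.0689), which is 1.56-fold. Without control rats 1, 2 and 3 the difference after 4 days was 0.61 (adjusted p = 0.139).

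The dimmer probe set of Mybl2 ranged from 0.0382 to 0.103 in control rats with a median of 0.0747, from 0.0434 to 0.101 after 1 day with a median of 0.0743, and from 0.0358 to 0.0720 after 4 days with a median of 0.0533. Its differences were -0.04 after 1 day and -0.43 after 4 days (adjusted p = 0.298). The mean of both probe sets gave 0.10 after 4 days (adjusted p = 0.769), and both lay below the 37th percentile of all probe sets, so that the direction of Mybl2 depends on the probe set.

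The genes of mitosis were mostly lower, with wider spread. Of 4 genes for mitotic kinases and the chromosomal passenger complex (Plk1, Aurka, Aurkb and Birc5), 3 were lower after 1 day and 4 after 4 days, with medians of -0.02 and -0.29. These counts were 1 and 3 and the medians 0.10 and -0.12 without control rats 1, 2 and 3. Aurkb, the kinase that corrects attachments of chromosomes and the brightest of the 4, ranged from 0.0697 to 0.131 in control rats, from 0.0596 to 0.129 after 1 day and from 0.0401 to 0.122 after 4 days, with medians of 0.0940, 0.0973 and 0.0836. Its differences were -0.02 ± 0.17 and -0.25 ± 0.17, and the first was 0.10 without control rats 1, 2 and 3. Aurka, the kinase of the spindle poles, had -0.42 and -0.32, which came to -0.05 and 0.05 without those rats.

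Of 6 genes of the spindle checkpoint and of the ubiquitination that starts anaphase, 6 were lower after 1 day and 5 after 4 days, with medians of -0.35 and -0.21. The counts were 6 and 4 and the medians -0.27 and -0.09 without control rats 1, 2 and 3. Ube2c, the ubiquitin-conjugating enzyme of the anaphase-promoting complex, ranged from 0.0928 to 0.264 in control rats with a median of 0.145, from 0.0422 to 0.179 after 1 day with a median of 0.109, and from 0.0535 to 0.221 after 4 days with a median of 0.103. Its differences were -0.58 ± 0.26 (adjusted p = 0.495) and -0.47 ± 0.26 (adjusted p = 0.506), and came to -0.37 and -0.27 without control rats 1, 2 and 3. Bub1, a checkpoint kinase at kinetochores, ranged from 0.0648 to 0.144 in control rats, from 0.0446 to 0.116 after 1 day and from 0.0617 to 0.115 after 4 days, with medians of 0.0989, 0.0755 and 0.0837. Its differences were -0.35 ± 0.16 (adjusted p = 0.493) and -0.24 ± 0.16 (adjusted p = 0.593). Bub1b, Mad2l1 and Ttk of the checkpoint and Cdc20, an activator of the anaphase-promoting complex, ranged from -0.57 to -0.11 after 1 day and from -0.46 to 0.14 after 4 days. The other, dimmer probe set of Ttk gave 0.38 after 1 day and 0.04 after 4 days. The other probe sets of Cdc20, also dimmer, ran from 0.02 to 0.12 after 1 day and from -0.23 to 0.43 after 4 days.

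Of 7 genes of chromosomes, spindle and kinetochore, 6 were lower after 1 day and 7 after 4 days, with medians of -0.28 and -0.40. With control rats 1, 2 and 3 left out the counts were the same and the medians were -0.19 and -0.19. Nusap1, which binds spindle microtubules, ranged from 0.124 to 0.241 in control rats with a median of 0.173, from 0.0788 to 0.203 after 1 day with a median of 0.133, and from 0.0643 to 0.188 after 4 days with a median of 0.133. Its differences were -0.30 ± 0.18 (adjusted p = 0.640) and -0.49 ± 0.18 (adjusted p = 0.268), and its other probe set gave -0.40 and -0.48. Top2a, which untangles sister chromosomes and was the brightest of the 7, ranged from 0.111 to 0.252 in control rats, from 0.0758 to 0.226 after 1 day and from 0.0858 to 0.240 after 4 days, with medians of 0.187, 0.137 and 0.139. Its differences were -0.28 ± 0.20 and -0.22 ± 0.20. Without control rats 1, 2 and 3 its control median was 0.128, below both handled medians, and the differences of mean log2 intensity were -0.17 and -0.10. Mki67, the proliferation marker Ki-67, had -0.21 and -0.17, and Kif11, Kif20a, Prc1 and Cenpf ranged from -0.45 to 0.05.

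Of the 2 genes of cytokinesis, Ect2, which activates the small GTPase RhoA at the cleavage furrow and was the brighter, ranged from 0.0469 to 0.149 in control rats, from 0.0483 to 0.135 after 1 day and from 0.0455 to 0.118 after 4 days, with medians of 0.1004, 0.0982 and 0.0687. Its differences were -0.10 ± 0.22 and -0.33 ± 0.22. Racgap1, its partner at the spindle midzone, had -0.13 and 0.09.

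**Figure D3:**
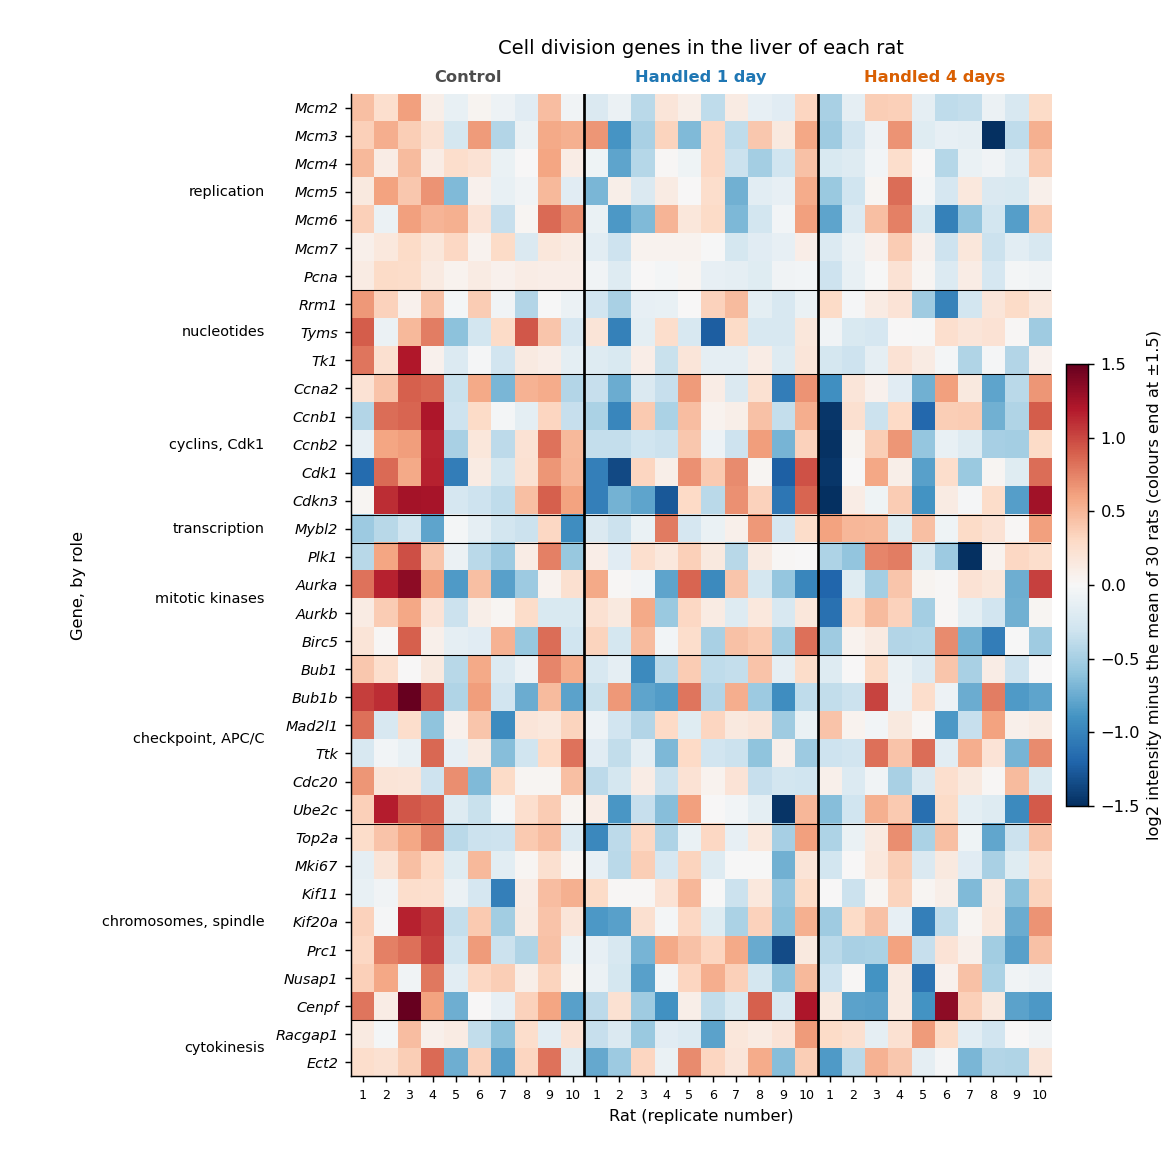
Log2 intensity of each of the 35 genes (rows, by role) in each of the 30 rats (columns, by group and replicate number), minus the gene's mean over the 30 rats, with colours ending at 1.5 in either direction. Red cells gather in control rats 1, 2, 3, 4 and 9, and blue cells in single rats of both handled groups, but colour does not follow group in every rat. Control rats 5 and 7 had 8 genes each above the median of all 30 rats. Rats 5 and 10 handled for 1 day had 27 each, and rat 4 handled for 4 days had 28.

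Rats of 1 group differed from each other by more than the group medians did. The mean log2 intensity over the 35 genes ran from -3.57 to -2.72 in control rats with a median of -3.13, from -3.76 to -3.01 after 1 day with a median of -3.42, and from -3.78 to -3.05 after 4 days with a median of -3.44. The 3 groups overlapped, and the SD over rats was 0.29, 0.24 and 0.24. Without control rats 1, 2 and 3 the control median was -3.28, closer to both handled medians. Control rats 1, 2 and 3 had 26, 28 and 33 genes above the median of all 30 rats. Control rats 4 and 9 had 32 each, and control rats 5 and 7 had 8 each. In the handled groups these counts ran from 3 to 27 after 1 day and from 6 to 28 after 4 days, with medians of 14.5 and 13.5 against 24 in control rats, or 22 without control rats 1, 2 and 3. Rat 1 of the group handled for 4 days was the lowest of all 30 rats in 9 genes.

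**Figure D4:**
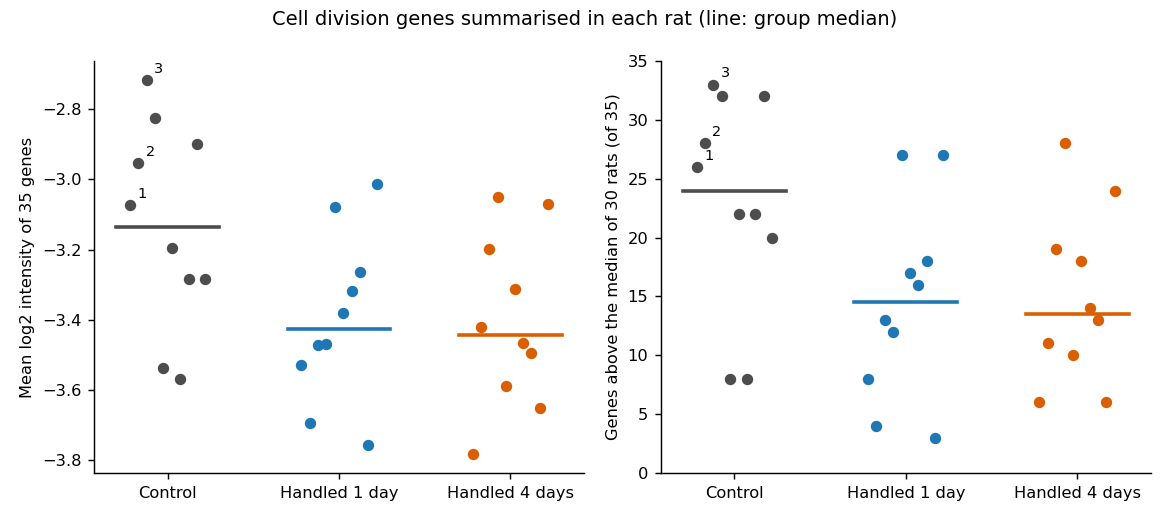
Mean log2 intensity over the 35 genes (left) and number of the 35 genes above the median of all 30 rats (right) in each rat, by group, with a line at the group median and control rats 1, 2 and 3 numbered. The control medians of -3.13 and 24 genes (-3.28 and 22 without control rats 1, 2 and 3) lie above those of the handled groups, while single rats of all groups overlap.

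The spread of single genes within a group was wide for their differences. The median SD of log2 intensity over the 35 genes was 0.47 without handling, 0.42 at 1 day and 0.48 at 4 days, against 0.37, 0.33 and 0.34 over all probe sets. Pcna had the lowest SD in each group, 0.08, 0.08 and 0.17, and the highest were those of Bub1b in control rats (0.84), Cdk1 after 1 day (0.85) and Cdkn3 after 4 days (0.86). The difference from control exceeded 1 SD within groups for 5 genes after 1 day (Mcm4, Mcm7, Pcna, Tyms and Mybl2) and for 5 after 4 days (Mcm6, Mcm7, Pcna, Mybl2 and Nusap1).

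The handled groups were then compared with each other. After 4 days against 1 day 16 of 35 genes were lower, against 48.5% of all probe sets, and the median difference was 0.01. In limma 0 of 35 genes passed, where 0% of all probe sets did, and at an unadjusted p under 0.05 1 gene did, Ttk, which was higher by 0.48 (adjusted p = 0.985), where 2.42% of all probe sets were higher at that p. The other probe set of Ttk gave -0.34.

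A wider list of 90 cell cycle genes, of which 76 were found, gave medians nearer to 0. After 1 day 63 of 76 and after 4 days 63 of 76 were lower, against 50.8% and 49.5% of all probe sets. The medians were -0.16 and -0.20. In either comparison 0 passed the test, where 0.0902% and 0.657% of all probe sets did. At an unadjusted p under 0.05, 12 and 14 were lower, where 4.86% and 5.89% of all probe sets were. At that p 0 were higher, where 4.47% and 5.40% of all probe sets were. Without control rats 1, 2 and 3, 56 and 60 were lower, against 52.2% and 50.8% of all probe sets, with medians of -0.11 and -0.16. The smallest p after 1 day were those of Cks1b, a small subunit that binds cyclin-dependent kinases, at -0.43 (adjusted p = 0.190), and Dlgap5, a spindle protein, at -0.62 (adjusted p = 0.248). After 4 days they were those of Cenpk, a kinetochore protein, at -0.57 (adjusted p = 0.185), and Cks2, a relative of Cks1b, at -0.39 (adjusted p = 0.190).

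Of 12 listed inhibitors of the cell cycle and genes of quiescence, 11 were found. Of these, 6 were lower after 1 day and 4 after 4 days, against 50.8% and 49.5% of all probe sets. The medians were -0.02 and 0.01, and 0 passed, where 0.0902% and 0.657% of all probe sets did. At an unadjusted p under 0.05 in limma, 2 were lower after 1 day, Rbl1 at -0.25 and Lin37 at -0.34, and 0 after 4 days. Over all probe sets 4.86% and 5.89% were. Cdkn1a alone was higher at that p in both comparisons, where 4.47% and 5.40% of all probe sets were. Cdkn1a, the p21 inhibitor of cyclin-dependent kinases, ranged from 0.0401 to 0.882 in control rats, from 0.0755 to 1.07 after 1 day and from 0.146 to 2.11 after 4 days, with medians of 0.111, 0.426 and 0.448. Its differences were 1.42 ± 0.59 (adjusted p = 0.452) and 1.497 ± 0.59 (adjusted p = 0.302). Without control rats 1, 2 and 3 it was higher by 2.15 (adjusted p = 0.173) and 2.23 (adjusted p = 0.0962). The second of these passed, where 0.828% of all probe sets did.

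**Figure D5:**
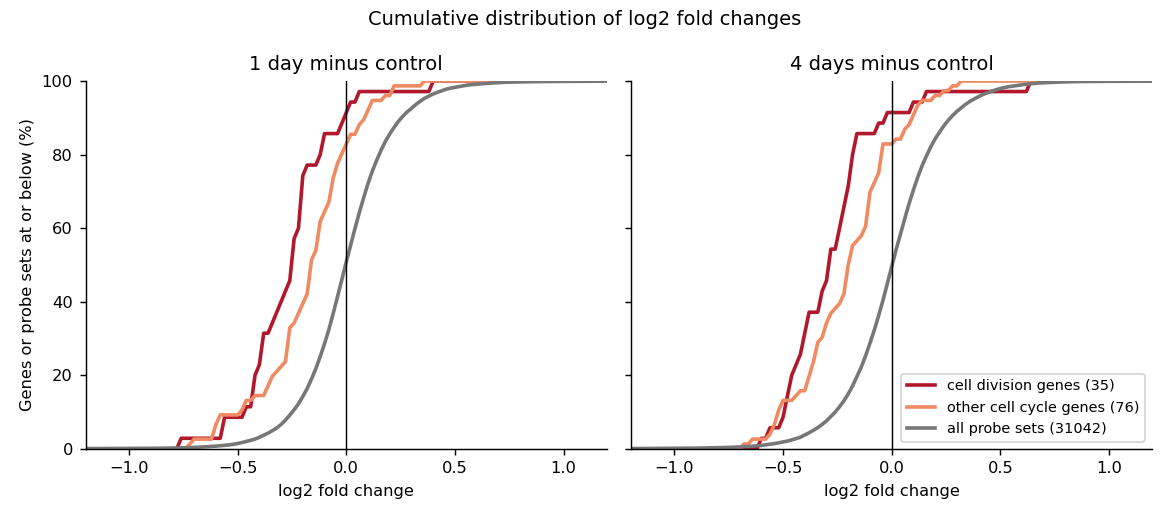
Share of genes or probe sets (%) with a log2 fold change at or below each value on the horizontal axis, after 1 day (left) and 4 days (right) against control, for the 35 cell division genes, 76 other cell cycle genes and all 31042 probe sets. The median of the 35 genes lies at -0.26 and -0.28, that of the other cell cycle genes at -0.16 and -0.20.

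The tissue was liver by its markers, and a Gapdh signal ratio, read as a sign of RNA breakdown, differed between the groups. Summed intensities of 8 hepatocyte markers ran from 268 to 312 over the 30 rats. For the marker counts that follow, 50.8% and 49.5% of all probe sets were lower after 1 and 4 days. In the same comparisons 0.0902% and 0.657% of all probe sets passed. Of 9 markers of T and NK cells, which can divide in liver, 4 were lower after 1 day and 7 after 4 days. Nkg7 of their granules fell by 0.42 after 4 days (adjusted p = 0.0902), while Cd3e (0.27) and Cd3g (0.03) were higher. The summed intensity of the 9 ran from 1.03 to 1.82 without handling, from 1.17 to 1.64 after 1 day and from 0.969 to 1.57 after 4 days. Of the 9, 5 lay below the median probe set, Cd3e, Cd3g and Cd3d among them. Of 6 markers of Kupffer cells and macrophages 1 was lower after 1 day and 4 after 4 days, and their summed intensity ran from 16.4 to 25.9 without handling, from 16.9 to 25.8 at 1 day and from 15.01 to 20.4 at 4 days. After 4 days Cd68 had -0.33 (adjusted p = 0.237) and Clec4f -0.24 (adjusted p = 0.270), while Cd163 had 0.19 and Adgre1 0.06.

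Of 5 markers of sinusoidal endothelium 0 were lower after 1 day and 2 after 4 days, and Stab2 had 0.28 after 1 day (adjusted p = 0.190). Their summed intensity ran from 15.03 to 18.8 without handling, from 17.2 to 20.2 at 1 day and from 14.8 to 18.8 at 4 days. Of 4 bile duct markers 3 were lower in each comparison. After 4 days Epcam had -0.39 (adjusted p = 0.250) and Krt7 0.03. The summed intensity of the 4 ran from 0.551 to 1.201, from 0.615 to 1.02 and from 0.541 to 1.15. The counts lower after 1 and 4 days were 2 and 3 of 4 for B and plasma cells, 0 and 0 of 3 for neutrophils, 3 and 2 of 6 for erythroid cells and 2 and 2 of 7 for stellate cells, and 0 of these markers passed. Without control rats 1, 2 and 3 the counts were 6 and 4 for hepatocytes, 5 and 8 for T and NK cells and 4 and 5 for macrophages. They were 0 and 4 for endothelium, 2 and 2 for bile duct and 4 and 3 for B and plasma cells. They were 0 and 0 for neutrophils, 2 and 1 for erythroid cells and 1 and 2 for stellate cells. Over all probe sets 52.2% and 50.8% were then lower. The part of any of these cells in the differences was not tested. The study describes the RNA of all samples as of good quality. A sign of RNA breakdown was read from Gapdh alone, as the log2 signal of its 3′ control probe set minus that of its 5′ one. Control rats had values of 0.5498 to 0.7006, against 0.6624 to 0.8284 at 1 day and 0.7009 to 0.9634 at 4 days. No control rat reached the values at 4 days, and the ranges at 1 day overlapped only in part. This ratio and handling therefore cannot be told apart, and adjusting for that ratio cannot separate them. With that ratio as a covariate, 33 of 35 genes were lower in both comparisons, against 50.6% and 49.3% of all probe sets, with medians of -0.35 and -0.42. Under this covariate 0 of the 35 passed, where 0% and 0.0161% of all probe sets did.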

How the data were processed

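Liver RNA of 30 rats was labelled by the GeneChip 3′ IVT Express method and profiled by a contract laboratory, with quality checks and analyses in GCOS, Affymetrix's array software. The authors computed log10 ratios in Rosetta Resolver 7.2, which were not used here. Each deposited value is the linear intensity of a probe set on an array, and the array mean of about 1 is read from the values. Which of these programs wrote the deposited intensities, and with what settings, is not given in the sources used here. The arrays hold 31099 probe sets, of which all but 57 Affymetrix controls (31042) were tested. Values were log2 transformed with no offset. Groups were compared by limma 3.58.1 under R 4.3.3, in a single fit of 3 groups (lmFit, then eBayes, two-sided, no covariate), with Benjamini-Hochberg adjustment over all probe sets and a call at an adjusted p below 0.1. A fold change is a difference of group means on the log2 scale. Symbols came from GEO's platform annotation, with 20826 probe sets carrying 1 symbol, 436 several and 9780 none listed.

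The members, the other lists, the markers and the promoter sequences searched were chosen with earlier results of these data known. Values by group are given for genes called in any comparison, genes at an unadjusted p under 0.05 against control and the brightest gene of each role. Of the 90 other cell cycle genes, the 2 with the smallest p in each comparison are named. The pipeline was tested on simulated data. Plots used matplotlib 3.10.9 under Python 3.11.15. Promoters are RefSeq's (GRCr8). The E2F letters were first searched as TTNNCGC and then, after those matches were seen, as 4 words, and both counts are given. The number of arrays limits the precision.

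Deviations of same-numbered rats of different groups had a median r of 0.05 (-0.04 to 0.12 over 30 pairs, 1 of them over 0.1), against -0.01 over 270 pairs of different number. Of the 30 rats, 8 correlated best with a rat of their own number, which 2 of the 20 rats in the other groups carry. The study formed its groups by body weight, and whether the numbers follow weight is not stated. No source ties them to a shared cage or day either, so the numbers were not taken to pair the rats. Alternatives were an offset of 0.05, quantile normalization, array weights, an intensity trend, the Gapdh ratio as a covariate, a replicate block, only the 2 groups compared, the methods' t-test, an exact rank-sum test, the mean of a gene's probe sets, a filter on the dimmest 40% of probe sets, a threshold of 0.05, and leaving out control rats 1, 2 and 3 or each rat in turn. An offset of 16 was named in advance for larger signals and was not run.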

Additional observations from a re-analysis of the deposited data

Results flagged for a closer look

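In 4 of 108 groups of 10 rats examined (35 genes and their mean, in 3 groups), the highest or lowest rat lay apart from the others. The criterion was Dixon's ratio above 0.466, a level that chance passes in about 1 in 20 groups. The ratios were taken on log2 intensities, while the intensities given here are linear. Mcm3 was 0.0163 in rat 8 of the group handled for 4 days, with the next rat at 0.0433 (ratio 0.538). Mcm5 was 0.246 in rat 4 of the same group, with the next at 0.154 (ratio 0.483). Mcm7 was 0.451 in control rat 8, with the next at 0.544 (ratio 0.507), and Kif11 was 0.0429 in control rat 7, with the next at 0.0731 (ratio 0.496).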

How the results depend on the processing

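The share of genes that were lower and the median difference kept their direction under every alternative run. Several alternatives leave the group means unchanged and could not have turned it. These are the fit of only the 2 groups compared, the intensity trend, the t-test, the rank-sum test, the replicate block and the threshold of 0.05. The filter on the dimmest 40% also leaves the group means of each remaining gene unchanged, and alters only which genes are counted. Leaving out each rat in turn, 30 to 33 genes were lower after 1 day and 31 to 32 after 4 days, with medians from -0.32 to -0.20 and from -0.36 to -0.23. The calls did not hold as well. The count of genes called after 4 days, 1 where 204 of 31042 probe sets were called, was 0 without control rats 1, 2 and 3 (257 probe sets called), with only the 2 groups compared (27), with array weights (137), with the Gapdh ratio as a covariate (5), by the exact rank-sum test (155), with the mean of a gene's probe sets (173 of 14217 genes), with the replicate block (85) and at an adjusted p under 0.05 (70). It was 2 (Pcna and Mybl2) with the intensity trend (370). Leaving out each rat in turn it was 0 to 2. Mybl2 lost its call without control rat 1, 2, 3 or 4 or without rat 1, 2, 3, 5, 8 or 10 of those handled for 4 days. In those settings its adjusted p ran from 0.1003 to 0.123, and over every rat left out in turn from 0.0369 to 0.123. Without rat 4 handled for 4 days Pcna was called (adjusted p = 0.0961). After 1 day the count was 1 (Pcna) by the methods' t-test (55 probe sets called) and by the exact rank-sum test (28), and 0 to 0 when each rat was left out. Without the dimmest 40% of probe sets 25 members were left, Mybl2 not among them, and Pcna was called after 4 days (adjusted p = 0.0801, with 490 of 18625 probe sets called). Aurkb after 1 day turned to 0.10 without control rats 1, 2 and 3 and to 0.0285 with array weights, and ran from -0.0718 to 0.0521 when each rat was left out. The cause was not tested. With the replicate block 2 and 85 probe sets were called after 1 and 4 days, against 28 and 204 without it, and 8 of 30 rats correlated best with a rat of their own number, which 2 of the 20 rats in the other groups carry. Of 438 values of 17 named genes under 13 settings, 424 kept their direction and their side of the threshold. In the settings that leave the group means unchanged, only the side of the threshold could differ. The E2F letters were present in 15 of 30 promoters in the first form and in 12 in the form chosen after the first was seen.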
